A study of Rosa rugosa with 9 samples.

Results

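Roots of Rosa rugosa 'Zizhi' that received the larger of a pair of humic acid replacements, HA2, were compared with roots that received the smaller one, HA1, gene by gene over the whole transcriptome. The libraries were taken by their group labels alone, and the comparison used 6 of the 9 libraries of the series, 3 HA2 and 3 HA1. In HA2 the nutrient solution held 0.0368 g of ammonium dihydrogen phosphate and 0.0552 g of humic acid, so that 40% of the phosphorus salt remained. In HA1 it held 0.0552 g of the salt and 0.0368 g of humic acid, so that 60% remained. The other 3 libraries, CK, came from plants that had the full 0.092 g of the salt and no humic acid. They entered the fit to help estimate the spread, and their values are given as a description. All plants were grown in pots of sand in a greenhouse and given 200 ml of Hoagland solution a week for 37 weeks, and RNA was taken from tender roots. Phosphorus, ammonium and humic acid all change between HA2 and HA1, so their parts in any difference cannot be told apart. The labels do not say that the libraries of a group came from separate plants, so p-values measure only the spread between these samples.

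Humic acid is the alkali-soluble, dark organic fraction of decomposed plant matter and is applied to soils as a growth stimulant and a binder of metals. Roots take up phosphorus as inorganic phosphate through plasma membrane transporters of the PHT1 family and load it into the xylem through PHO1. SPX domain proteins sense inositol pyrophosphates, which report the phosphate status of the cell, and hold back the PHR transcription factors while phosphate is plentiful. When it is scarce, PHR factors switch on PHT1 transporters, purple acid phosphatases that release phosphate from organic compounds, and SPX genes themselves. Ammonium enters roots through AMT transporters.

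The libraries held 33847262 to 42988605 counts, and 25260 genes with enough counts were tested. Levels are given as CPM (counts scaled to library size with TMM, the trimmed mean of M-values), in the order of replicates 1, 2 and 3. HA2 replicate 3 stood apart. On the first principal component of the 6 libraries, which held 39.3% of the variance, it lay at 131, and the other 5 libraries lay between -49.2 and -9.08. On that of all 9 libraries, which held 43.9%, it lay at -45.8, within the CK range of -131 to -42.3. The other HA2 and HA1 libraries lay between 39.7 and 70.4. On the second component, with 15.3%, it lay at -79.6, away from CK at 4.27 to 33.1. The cause was not tested. All 6 genes for Casparian strip membrane proteins, which mark the root endodermis, had counts in every library. They summed to 47.1 to 124 CPM in HA2 and 49.2 to 79.4 CPM in HA1. Genes for chlorophyll a-b binding proteins and the Rubisco small subunit, markers of green tissue, summed to 45.1, 82.4 and 138 CPM in HA2 and 103, 103 and 72.1 CPM in HA1. Of these 25 genes, 12 to 15 were at 0 in the HA2 libraries and 8 to 11 in the HA1 libraries. Bulk tissue was sequenced, so fewer cells of a type and less RNA per cell cannot be told apart.

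No gene passed the adjusted threshold of 0.05 in edgeR's quasi-likelihood test, where the lowest Benjamini-Hochberg adjusted p was 0.176. At an unadjusted p under 0.05, 4069 genes differed (16.1%), of which 1944 were higher in HA2 (7.7%) and 2125 were lower (8.41%). The Wald test of DESeq2, which was run as an alternative, called 946 of 22205 genes (4.26%) at an adjusted p under 0.05. It called 431 higher in HA2 (1.94%) and 515 lower (2.32%), and "called" below means by this test. In 925 of these 946 genes the 3 HA2 values lay wholly above or below the 3 HA1 values, as they did in 24.3% of all tested genes. The share was 38.3% of all tested genes where HA2 replicate 3 was left out. Fewer values overlap less often even without a difference, so these shares cannot be compared. Without HA2 replicate 3 DESeq2 called 468 genes, 241 higher (0.963%) and 227 lower (0.907%), and 286 genes were called both with and without it. The DESeq2 counts moved by more than 1.5 times under several of the fits that leave out 1 library. Without HA1 replicate 1 it called 67 higher and 73 lower, without HA2 replicate 2 it called 110 and 84, without HA1 replicate 2 it called 205 and 196, and without CK replicate 1 it called 256 and 308. A set of 121 genes, not all of which are named here, was followed through the fits. Of these genes 87 were called, and 30 of them stayed so without HA1 replicate 1, 39 without HA2 replicate 2, 53 without HA2 replicate 3, 61 without HA1 replicate 2 and 74 to 87 without any other single library. In the text, a value for a fit that leaves out 1 library is given where it moved a called fold change by more than 1.5 times. The authors' deposited table, at a false discovery rate of 0.01 and a fold change of 2, marks 89 genes higher (0.439%) and 123 lower (0.607%) of 20271. Of these 212 genes, 205 had an unadjusted edgeR p under 0.05 in the same direction and 185 were called by DESeq2 here.

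**Figure D1:**
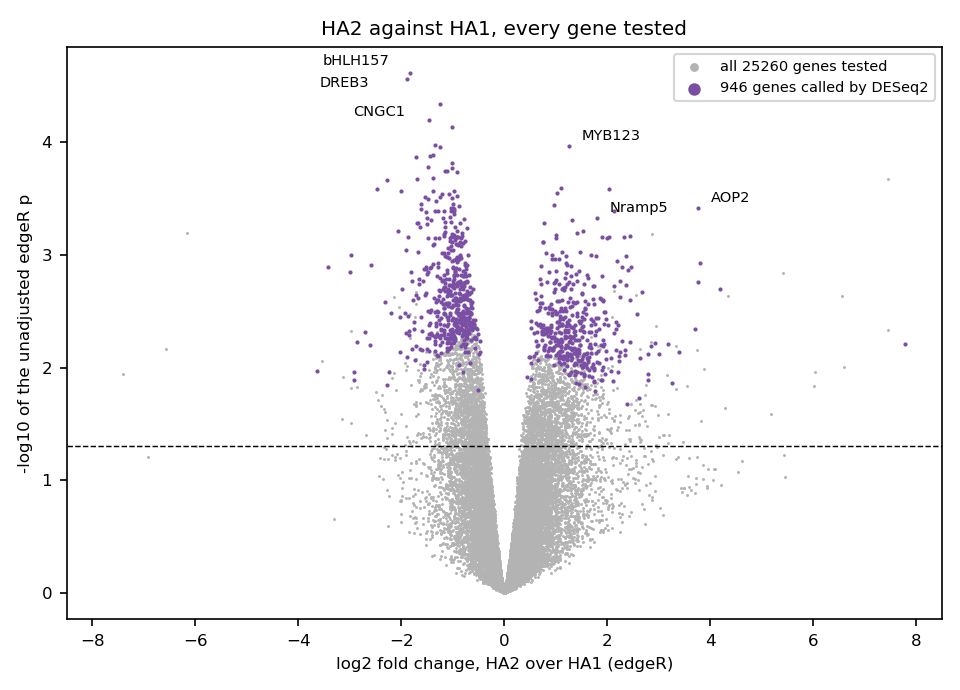
Each point is 1 of the 25260 tested genes, with the log2 fold change of HA2 over HA1 on the x axis and -log10 of the unadjusted edgeR p on the y axis. Of these genes 4069 lie above the dashed line, drawn at an unadjusted value of 0.05, and purple points are the 946 genes called by DESeq2. The named genes on the left are lower in HA2 and those on the right are higher.

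The differences were small for most genes. The median absolute log2 fold change over all tested genes was 0.36, and the median with its sign was 0.03. Genes with an unadjusted p under 0.05 and at least a 2-fold difference were more often higher in HA2, with 931 higher and 602 lower.

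Transcription factor genes were among those lower in HA2 with the lowest p. bHLH157 (Rru07G008430), a basic helix-loop-helix factor, had 7.8, 5.16 and 4.8 CPM in HA2 and 23.5, 17.7 and 21.7 CPM in HA1. All HA2 values were below all HA1 values, and CK had 8.17, 10.6 and 9.97 CPM. Its log2 fold change was -1.83 ± 0.23 (SE), with an edgeR p of 2.44e-05 unadjusted and 0.176 adjusted, and a DESeq2 adjusted p of 1.35e-07, which ranged from 1.58e-11 to 0.000364 over 11 alternative DESeq2 fits. Dehydration-responsive element-binding protein 3 (Rru06G057100), a factor of the AP2/ERF family, had 24.7, 18.4 and 20.0 CPM in HA2 and 82.7, 69.5 and 81.4 CPM in HA1. The groups were far apart, and CK had 22.5, 36.1 and 42.3 CPM. This gene had a log2 fold change of -1.89 ± 0.25, with a DESeq2 adjusted p of 1.35e-07 (5.35e-13 to 0.000364 over the same alternatives). The trihelix factor ASIL2 (Rru02G056190), which represses seed maturation genes in Arabidopsis seedlings, had a log2 fold change of -1.02 ± 0.17, and MYBC1 (Rru02G038360) one of -0.91 ± 0.15. Both kept a DESeq2 adjusted p under 0.05 in all 11 alternatives.

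The lower genes also held receptors and kinases. UVR8 (Rru03G014810), described after the receptor for ultraviolet-B light, had 92.7, 77.0 and 48.3 CPM in HA2 and 227, 209 and 173 CPM in HA1. All 3 HA2 roots were below all 3 HA1 roots, and CK was lower still at 38.4, 40.4 and 41.2 CPM. The gene had a log2 fold change of -1.48 ± 0.24, with a DESeq2 adjusted p of 0.000109 (1.79e-06 to 0.00907). A cyclic nucleotide-gated ion channel 1 gene (Rru01G018140), of a family of cation channels in the plasma membrane, had 27.9, 25.3 and 22.2 CPM in HA2 and 55.2, 56.7 and 66.1 CPM in HA1. CK had 17.8, 21.6 and 23.6 CPM. The receptor-like cytosolic kinase RBK2 (Rru03G005150), named for binding ROP GTPases, had 24.4, 19.7 and 21.7 CPM in HA2 and 45.4, 45.6 and 41.7 CPM in HA1. For the kinase the log2 fold change was -1.01 ± 0.15, and for the channel it was -1.24 ± 0.17.

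Further genes with lower values encode enzymes and RNA-binding proteins. Triacylglycerol lipase 2 (Rru02G079670) had 4.35, 5.63 and 4.34 CPM in HA2 and 13.4, 10.7 and 12.3 CPM in HA1, a log2 fold change of -1.35 ± 0.21. A pentatricopeptide repeat protein (Rru01G053870), of a family that processes organelle transcripts, had 12.6, 8.1 and 9.7 CPM in HA2 and 26.5, 23.3 and 22.4 CPM in HA1. The log2 fold change of the sugar transferase UGT87A1 (Rru05G063770) was -1.38 ± 0.22, that of aldehyde dehydrogenase 22A1 (Rru04G008650) -1.15 ± 0.19 and that of the RING1-like ubiquitin ligase (Rru02G077690) -1.01 ± 0.16. All 5 were called by DESeq2 in each of its 11 alternatives, with the highest adjusted p between 0.00578 and 0.0211.

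On the higher side the gene with the lowest p was MYB123 (Rru06G055700), whose Arabidopsis namesake, also called TT2, activates proanthocyanidin synthesis. It had 30.9, 33.1 and 25.9 CPM in HA2 and 15, 11.4 and 11.2 CPM in HA1. Every HA2 library was above every HA1 library, and CK was higher than both at 53.3, 69.4 and 51.8 CPM. The log2 fold change was 1.26 ± 0.2, with an edgeR p of 0.000109 unadjusted and a DESeq2 adjusted p of 4.49e-05 (4.4e-06 to 0.00576 over 11 alternatives). BRUTUS (Rru01G015830), a ubiquitin ligase that binds iron and restrains the iron deficiency response in Arabidopsis, had 14.4, 13.6 and 13.9 CPM in HA2 and 6.07, 7.94 and 6.72 CPM in HA1. The 3 HA2 values lay within 1 CPM of each other, and CK had 13.3, 17.7 and 14.2 CPM. Its log2 fold change was 1.02 ± 0.18, with a DESeq2 adjusted p of 0.000526 (0.000132 to 0.0269).

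A cluster of genes described as AOP2, a probable inactive 2-oxoglutarate-dependent dioxygenase, was also higher. Active AOP2 modifies glucosinolate side chains in Arabidopsis. Rru05G071550 had 69.7, 91.6 and 26.2 CPM in HA2 and 10.9, 11.3 and 14.1 CPM in HA1. Replicates 1 and 2 of HA2 were far above HA1, and replicate 3 was nearer to it. Its fold change on the log2 scale was 2.37 ± 0.5, with a DESeq2 adjusted p of 0.000656 (1.14e-06 to 0.0314). Rru05G071510 had a log2 fold change of 2.44 ± 0.49 and Rru05G071600 one of 3.76 ± 0.69, and all 3 genes were called in all 11 alternatives. Without HA2 replicate 2 those log2 fold changes were 1.75 and 2.96. Reads of these neighbouring, similar genes may be split uncertainly between them.

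**Figure D2:**
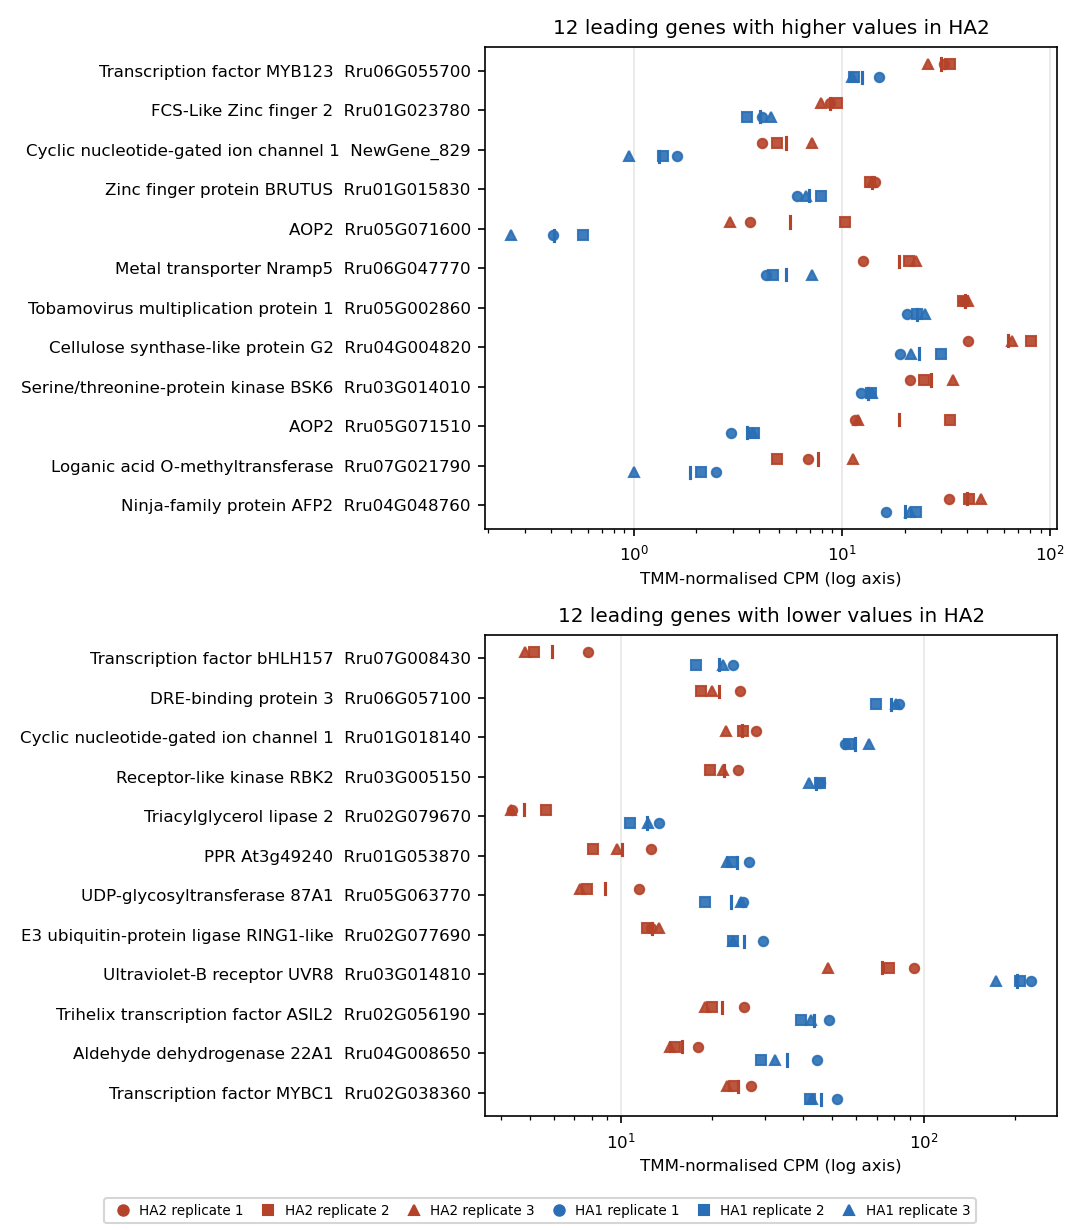
Level of the 12 genes with the lowest p in each direction, with the gene on the y axis and TMM-scaled CPM on a log x axis. Red symbols are the 3 HA2 libraries, blue symbols the 3 HA1 libraries and short bars the group means. In each of these 24 genes the 3 HA2 values do not overlap the 3 HA1 values, which was a condition for showing them.

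Signalling genes were on the higher list as well. FCS-like zinc finger 2 (Rru01G023780), of a family of adaptors that bind the SnRK1 energy-sensing kinase, had 8.73, 9.48 and 7.97 CPM in HA2 and 4.11, 3.49 and 4.56 CPM in HA1. AFP2 (Rru04G048760), of a family that binds the abscisic acid factor ABI5, had 32.6, 40.8 and 46.8 CPM in HA2 and 16.2, 22.8 and 21.2 CPM in HA1. The log2 fold changes were 1.1 ± 0.19 and 1.0 ± 0.2. The brassinosteroid signalling kinase BSK6 (Rru03G014010) had a log2 fold change of 1.0 ± 0.2. Both BSK6, with a DESeq2 adjusted p of 0.0025 (0.000603 to 0.0675), and AFP2, with 0.00271 (0.00137 to 0.0581), lost the call in at least 1 alternative, and FCS-like zinc finger 2 in none. A second cyclic nucleotide-gated ion channel 1 gene (NewGene_829) was higher, with 4.12, 4.88 and 7.21 CPM in HA2 and 1.62, 1.38 and 0.947 CPM in HA1. This gene and Rru01G018140 of the same description thus lay in opposite directions, at log2 fold changes of 2.03 ± 0.35 and -1.24 ± 0.17.

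Several genes with the lowest false discovery rates in the authors' deposited table varied widely among the CK libraries, which entered the fit here. The strawberry allergen homologue Fra a 1-3 (Rru04G035580), of a family tied to phenylpropanoid metabolism in strawberry, had 531, 213 and 160 CPM in HA2 and 53.2, 43.7 and 50.5 CPM in HA1. The groups did not overlap, but CK ran from 4.25 to 117 CPM, and the DESeq2 adjusted p here was 0.131 (4.88e-06 to 0.428 over the 8 alternatives that gave this gene one). Its false discovery rate in the authors' deposited table is 1.02e-05. The protease homologue GIP2 (Rru04G030390) had 6.32, 5.71 and 5.19 CPM in HA2 and 0.867, 1.87 and 1.66 CPM in HA1. Its CK values were 15.5, 3.0 and 1.51 CPM, and its DESeq2 adjusted p here was 0.0764 (0.000122 to 0.398). A 1-aminocyclopropane-1-carboxylate synthase gene (Rru02G023490), for the rate-limiting step of ethylene synthesis, had one of 0.063 (7.71e-05 to 0.41). The synthase had 1.62, 0.971 and 1.75 CPM in HA2, 10.8, 5.87 and 5.37 CPM in HA1, and 0.17, 4.73 and 1.67 CPM in CK.

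The phosphate transporters were described as a list, matched by their annotation. Of 20 transporter genes 16 had enough counts to test, and 2 of them were higher in HA2 at an unadjusted p under 0.05 and none were lower, with 14 past neither. DESeq2 called the same number, 2 higher and 0 lower, and without HA2 replicate 3 it called 0 in either direction. The median log2 fold change of the 16 was 0.35, against 0.03 for all genes, and it was 0.11 without HA2 replicate 3. The remaining lists below are given in the same way, each against a background of 7.7% of genes higher and 8.41% lower at that p. Apart from ribosomal proteins and mycorrhiza-type genes, all of the 22 lists had a higher share above that background. A higher share above the background was thus common to these lists and not particular to any of them. In the ammonium, heat shock and starch lists the lower share was also above its background and exceeded the higher share. The 22 are a part of the 43 lists matched. Some of the others had a higher share below the background, such as gibberellin and citrate cycle genes, and some had one above it. Leaving out 1 library moved such a count by more than 1.5 times in 4 to 12 of the 22 lists, and in the most lists where it was HA1 replicate 1.

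The transporters past that p were both exporters of the PHO1 family, which load phosphate into the xylem. PHO1 (Rru04G007060) had 17, 18.2 and 52.3 CPM in HA2 and 4.7, 14 and 8.15 CPM in HA1. CK had 26.8, 21.3 and 39.7 CPM. HA2 replicate 3 was far above the other 5 humic acid libraries, and the lowest HA2 value was still above the highest HA1 value. PHO1 thus had a log2 fold change of 1.71 ± 0.53, with a DESeq2 adjusted p of 0.0331 (0.012 to 0.278). The values were 0.98 and 0.278 without HA2 replicate 3. PHO1 homolog 1 (Rru04G046980) had 11.2, 13.6 and 22.2 CPM in HA2 and 3.95, 6.5 and 8.61 CPM in HA1. Again the groups were apart and replicate 3 was the highest, with CK at 33.3, 17.2 and 29.6 CPM. The log2 fold change was 1.3 ± 0.38 and the DESeq2 adjusted p 0.0338 (0.0135 to 0.27). Another exporter, PHO1-2 (Rru02G067390), lay the other way at -0.31 ± 0.16, with a DESeq2 adjusted p of 0.365 (0.34 to 0.755).

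The PHT1-4 uptake transporters had the highest levels per length of the 16 and did not pass the test. By the deposited FPKM, which divides by transcript length, the PHT1-4 gene Rru04G006030 averaged 99.3 in HA2 and 44.0 in HA1, and a second PHT1-4 gene, Rru06G039720, averaged 78.9 in HA2 and 66.1 in HA1. Library by library, Rru04G006030 had 229, 359 and 91.7 CPM in HA2 and 35.2, 70.1 and 208 CPM in HA1. Replicates 1 and 2 of HA2 were high and replicate 3 was low, while in HA1 it was replicate 3 that was high, so that the groups overlapped. The log2 fold change was 1.12 ± 0.69 with an unadjusted p of 0.137, and it was 1.49 without HA2 replicate 3 with an unadjusted p of 0.058. Rru06G039720 had 191, 188 and 168 CPM in HA2 and 134, 170 and 161 CPM in HA1. PHT1-9 (Rru07G033980), whose Arabidopsis namesake acts in the root under phosphate starvation, had 21.0, 25.6 and 19.6 CPM in HA2 and 13.2, 16.9 and 18.2 CPM in HA1, an unadjusted p of 0.0819.

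**Figure D3:**
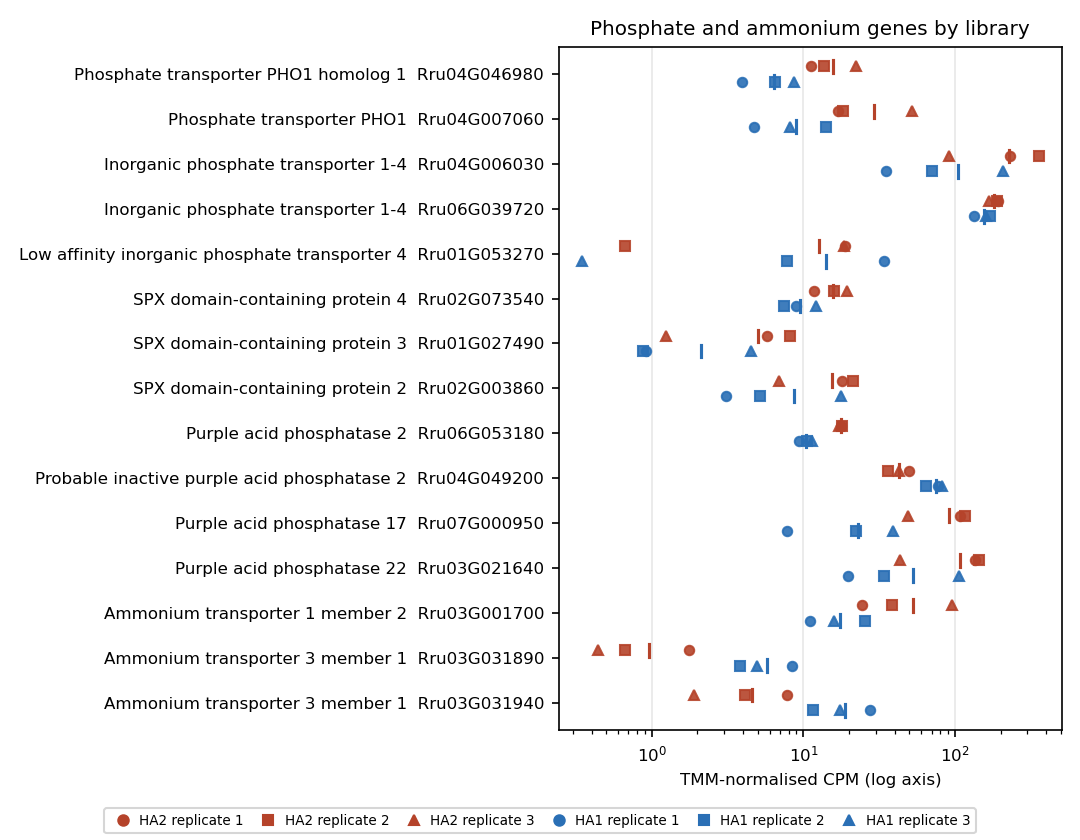
Level of 15 phosphate and ammonium genes, with the gene on the y axis and TMM-scaled CPM on a log x axis. Red symbols are the 3 HA2 libraries, blue symbols the 3 HA1 libraries and short bars the group means. For PHT1-4 Rru04G006030, SPX3, SPX2 and purple acid phosphatase 22 the HA2 replicate 3 triangle lies left of the other HA2 libraries and the HA1 replicate 3 triangle lies right of the other HA1 libraries.

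Among the SPX domain and phosphate starvation regulators 17 of 19 genes were tested. At an unadjusted p under 0.05, 5 were higher in HA2 and 0 were lower, DESeq2 called 0 in either direction, and the median log2 fold change was 0.40. Without HA2 replicate 3 only SPX3 was past that p. Of the 5, 3 are described as ALTERED PHOSPHATE STARVATION RESPONSE 1, which acts in Arabidopsis root growth. Of these, Rru02G013920 had 2.49, 2.39 and 3.73 CPM in HA2 and 0.571, 0.692 and 1.78 CPM in HA1, and Rru05G043560 had 72.4, 94.8 and 105 CPM in HA2 and 41.1, 67.4 and 66.9 CPM in HA1. The groups did not overlap in either gene, and the DESeq2 adjusted p was 0.0732 (0.00601 to 0.403) and 0.14 (0.0402 to 0.534). Another gene of this description, Rru06G055090, lay the other way, with 0.899, 1.03 and 1.07 CPM in HA2 and 1.85, 1.62 and 1.26 CPM in HA1. Its groups were apart as well, and its unadjusted edgeR p was 0.0723. SPX4 (Rru02G073540), a sensor that holds PHR factors outside the nucleus, had 11.7, 15.9 and 19.3 CPM in HA2 and 8.97, 7.49 and 12.1 CPM in HA1, an unadjusted p of 0.0314.

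Some of the starvation-induced SPX genes followed the library pattern of the PHT1-4 gene Rru04G006030. SPX3 (Rru01G027490) had 5.71, 8.13 and 1.24 CPM in HA2 and 0.913, 0.873 and 4.51 CPM in HA1. SPX2 (Rru02G003860) had 17.9, 21.2 and 6.94 CPM in HA2 and 3.1, 5.21 and 17.7 CPM in HA1. In both genes HA2 replicate 3 and HA1 replicate 3 lay on the side of the other group, and the unadjusted p was 0.14 for SPX3 and 0.296 for SPX2. Without HA2 replicate 3 the log2 fold change of SPX3 was 1.72 with an unadjusted p of 0.0351. A second SPX2 gene, Rru06G049410, followed the pattern only in part, since HA1 replicate 1 was high too. It had 23.1, 18.5 and 9.99 CPM in HA2 and 21.2, 12.9 and 24.9 CPM in HA1. The PHR factors that SPX proteins restrain differed less. PHOSPHATE STARVATION RESPONSE 1 (Rru06G038720) had 52.0, 57.8 and 50.6 CPM in HA2 and 56.2, 63.9 and 65.1 CPM in HA1, and its overlapping groups gave a log2 fold change of -0.21 ± 0.15. The ubiquitin-conjugating enzyme E2 24 gene (Rru05G007060), the counterpart of Arabidopsis PHO2 that removes phosphate transporters, had 118, 103 and 274 CPM in HA2 and 115, 208 and 196 CPM in HA1.

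Of 48 purple and other acid phosphatases 33 were tested. At an unadjusted p under 0.05, 4 were higher in HA2 and 2 were lower, and DESeq2 called 3 higher and 1 lower. The median log2 fold change was 0.36, and without HA2 replicate 3 it was 0.32 with 7 higher and 2 lower at that p, and 5 called higher and 0 lower. Purple acid phosphatase 17 (Rru07G000950), a starvation marker in Arabidopsis, had 108, 117 and 48.9 CPM in HA2 and 7.78, 22.3 and 39.1 CPM in HA1. The lowest HA2 value, in replicate 3, stood just above the highest HA1 value, also in replicate 3. Its log2 fold change was 1.98 ± 0.58, with a DESeq2 adjusted p of 0.0177 (0.00165 to 0.139), and without HA1 replicate 3 the log2 fold change was 2.60. Purple acid phosphatase 2 (Rru06G053180) had 17.8, 18.0 and 17.2 CPM in HA2 and 9.31, 10.6 and 11.4 CPM in HA1, and both groups were tight. The fitted difference, as a log2 fold change, was 0.76 ± 0.15, with a DESeq2 adjusted p of 0.00246 (0.00226 to 0.071).

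Other phosphatases lay both ways. Purple acid phosphatase 22 (Rru03G021640) had 136, 145 and 43.6 CPM in HA2 and 19.6, 34.1 and 106 CPM in HA1, so that its groups overlapped through the replicates numbered 3. The unadjusted p was 0.15. Purple acid phosphatase 3 (Rru04G052140) had 17.7, 8.6 and 1.1 CPM in HA2 and 1.23, 0.993 and 3.56 CPM in HA1, and inactive purple acid phosphatase 27 (Rru07G011710) had 7.92, 6.63 and 2.12 CPM in HA2 and 1.53, 1.26 and 2.58 CPM in HA1. These genes repeated the pattern of high HA2 replicates 1 and 2 and low HA2 replicate 3. Rru07G011730 and Rru01G005350, also described as inactive purple acid phosphatase 27, did not. In them HA2 replicate 3 was the highest HA2 library, at 19.4 and 13.8 CPM. In contrast, inactive purple acid phosphatase 2 (Rru04G049200) was lower, with 49.7, 36.4 and 42.5 CPM in HA2 and 77.6, 64.7 and 82.6 CPM in HA1. Its log2 fold change was -0.81 ± 0.19, with a DESeq2 adjusted p of 0.015 (0.00417 to 0.164).

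Ammonium transporters differed in both directions. Of 15 genes 8 were tested, 1 was higher in HA2 and 2 were lower at an unadjusted p under 0.05, and DESeq2 called the same numbers, or 0 higher and 2 lower without HA2 replicate 3. The median log2 fold change was 0.39, but it was -0.50 without HA2 replicate 3, so the list had no stable direction. AMT1-2 (Rru03G001700), of the high-affinity uptake subfamily, had 24.5, 38.4 and 95.1 CPM in HA2 and 11, 25.3 and 16.0 CPM in HA1. HA2 replicate 3 was more than the sum of the other HA2 libraries, and the groups overlapped. The fitted log2 fold change was 1.59 ± 0.49, with a DESeq2 adjusted p of 0.0338 (0.0033 to 0.279), and it was 0.85 without that library.

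Of 3 tested genes of the AMT3-1 type 2 were lower. Members of this subfamily are induced in mycorrhizal roots of several plants. Rru03G031890 had 1.77, 0.666 and 0.439 CPM in HA2 and 8.4, 3.82 and 4.91 CPM in HA1. Rru03G031940 had 7.8, 4.1 and 1.9 CPM in HA2 and 27.3, 11.6 and 17.5 CPM in HA1. In each gene all HA2 values were below all HA1 values, and CK lay near the HA2 values at 0.34 to 0.737 CPM for the one and 1.16 to 2.45 CPM for the other. Log2 fold changes were -2.58 ± 0.56 and -2.03 ± 0.52, with DESeq2 adjusted p of 0.00156 (5.35e-07 to 0.0841) and 0.0107 (7.41e-05 to 0.202). Without HA2 replicate 1 the log2 fold changes were -3.37 and -2.65. The third AMT3-1 gene, Rru03G031880, lay the other way, with 2.12, 1.97 and 1.78 CPM in HA2 and 1.37, 1.35 and 0.804 CPM in HA1. Its groups were apart too, but the log2 fold change of 0.73 ± 0.52 had an unadjusted p of 0.194. The genes of this type may share reads. By FPKM the most abundant members were AMT2 (Rru03G012420), with a mean of 80.0 in HA2 and 62.1 in HA1, and AMT1-1 (Rru04G008850), with 63.9 in HA2 and 62.9 in HA1. The groups of both overlapped.

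These 2 lower AMT3-1 genes belong to a list of genes that mark roots colonised by mycorrhizal fungi, whose level differed between libraries of the same group. The 17 genes of that list summed to 50.9, 14 and 97.7 CPM in HA2 and 110, 43 and 31.7 CPM in HA1, and to 7.54 to 9.9 CPM in CK. The defining pair, the low-affinity phosphate transporter 4 genes Rru01G053270 and Rru01G053280, summed to 26.0, 0.915 and 34.4 CPM in HA2 and 44.7, 10.9 and 0.574 CPM in HA1, and were at 0 counts in 2 CK libraries. Of 15 list members tested 0 were higher and 3 lower at an unadjusted p under 0.05. DESeq2 called 0 higher and 3 lower, and 2 lower without HA2 replicate 3. The lower members at that p were Rru03G031890, Rru03G031940 and RAM2 (Rru06G015850), an acyltransferase that makes lipid for the fungus, which had 2.55, 2.3 and 1.9 CPM in HA2 and 6.62, 5.21 and 3.73 CPM in HA1. The third AMT3-1 gene, also a member, was not among them. The median log2 fold change of the list was 0.73, opposite to these lower members, and it was -0.64 without HA2 replicate 3. The part of colonisation in the difference of the lower AMT3-1 genes was not tested.

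Nitrate and peptide transporters were more often higher in HA2. Of 93 genes 68 were tested, 8 were higher and 1 was lower at an unadjusted p under 0.05, and DESeq2 called 4 higher and 0 lower (1 and 1 without HA2 replicate 3). The median log2 fold change was 0.40. NPF4.5 (Rru06G051270), whose rice counterpart takes up nitrate at the mycorrhizal interface, had 5.54, 4.49 and 2.14 CPM in HA2 and 0.434, 1.38 and 0.431 CPM in HA1. The groups were apart, with a log2 fold change of 2.44 ± 0.59 and a DESeq2 adjusted p of 0.00534 (0.000185 to 0.102), and the log2 fold change was 3.22 without HA1 replicate 2. NPF6.3 (Rru07G022770), in Arabidopsis the nitrate transporter and sensor NRT1.1, had 11.2, 3.0 and 5.87 CPM in HA2 and 2.6, 1.75 and 2.64 CPM in HA1. Its DESeq2 adjusted p was 0.0554 (0.00831 to 0.276). NPF7.3 (Rru01G021560), which loads nitrate into the xylem in Arabidopsis, was lower at -1.12 ± 0.39, with an unadjusted p of 0.0185.

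Genes for handling iron, zinc and copper were more often higher. Of 121 genes 77 were tested, with 18 higher and 4 lower at an unadjusted p under 0.05, a median log2 change of 0.53, and 5 called higher and 0 lower by DESeq2. Without HA2 replicate 3 DESeq2 called 7 higher and 0 lower. Nramp5 (Rru06G047770), in rice the main importer of manganese, had 12.6, 20.9 and 22.7 CPM in HA2 and 4.34, 4.66 and 7.18 CPM in HA1. Every HA2 value exceeded every HA1 value, and CK had 19.5, 11.9 and 9.95 CPM. The log2 fold change was 1.8 ± 0.34, with a DESeq2 adjusted p of 0.000552 (6.85e-05 to 0.0246). Ferric reduction oxidase 4 (Rru01G052120), of the family that reduces iron or copper at the cell surface before uptake, had 1.31, 6.32 and 1.39 CPM in HA2 and 0.228, 0.12 and 0.287 CPM in HA1, a log2 fold change of 3.8 ± 0.82 at low counts that was 2.64 without HA2 replicate 2. Nramp2 (Rru06G059620) was lower, with 32.5, 31.3 and 21.1 CPM in HA2 and 52.9, 38.8 and 45.8 CPM in HA1, and a DESeq2 adjusted p of 0.105 (0.0711 to 0.486).

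Aquaporins and transporters of potassium and sulfate were tested together for 63 of 85 genes. At an unadjusted p under 0.05, 14 were higher in HA2 and 1 was lower, and DESeq2 called 5 higher and 0 lower. Potassium transporter 5 (Rru04G039750), a high-affinity importer, had 53.6, 77.8 and 126 CPM in HA2 and 26.4, 39.5 and 39.9 CPM in HA1. The groups did not overlap, and the log2 fold change was 1.28 ± 0.31 with a DESeq2 adjusted p of 0.0104 (0.000132 to 0.158). The water channel PIP2-4 (Rru05G052200) had 286, 368 and 348 CPM in HA2 and 113, 154 and 259 CPM in HA1. The NIP1-1 channel (Rru05G010310) had 21.6, 23.6 and 19.0 CPM in HA2 and 9.29, 12.8 and 12.8 CPM in HA1. Both were apart between the groups, with DESeq2 adjusted p of 0.0542 (0.000216 to 0.298) and 0.00931 (0.00611 to 0.131). The high-affinity sulfate transporter 1.3 (Rru07G043870) had a log2 fold change of 1.43 ± 0.43 and sulfate transporter 3.4 (Rru02G049090) one of 1.1 ± 0.31. The lower gene was the outward potassium channel SKOR (Rru05G058110), which releases potassium into the xylem, at -1.32 ± 0.43.

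Terpenoid and sterol synthesis had a larger share of higher genes. Of 119 genes 76 were tested, 21 were higher in HA2 and 1 was lower at an unadjusted p under 0.05, and DESeq2 called 12 higher and 0 lower. The median log2 fold change was 0.65 and it was 0.62 without HA2 replicate 3, but without that library DESeq2 called 2 higher and 1 lower. Squalene monooxygenase, which makes the epoxide from which sterols and triterpenes are built, contributed 10 of the 21. Of its 19 tested copies 10 were higher and 0 lower, with a median log2 change of 1.17. In 12 copies (63.2%) the groups were apart with HA2 higher, as they were in 10.1% of all tested genes. Like the HMG-CoA reductases, laccases and kinesins below, this family was counted apart after its values were seen. Rru04G031280 had 281, 372 and 698 CPM in HA2 and 56.0, 179 and 101 CPM in HA1. Rru04G031570 had 99.3, 178 and 494 CPM in HA2 and 19.1, 77.4 and 32.9 CPM in HA1. In both copies all HA2 values were above all HA1 values and HA2 replicate 3 was the highest. Their log2 fold changes were 2.01 ± 0.53 and 2.58 ± 0.66, with DESeq2 adjusted p of 0.00763 (0.00111 to 0.108) and 0.00289 (7.8e-05 to 0.06). For Rru04G031570 the log2 fold change was 1.69 without HA2 replicate 3 (adjusted p 0.06) and 3.31 without HA1 replicate 2. A copy on which HA2 replicate 3 was not the highest was Rru06G004040, with 379, 516 and 302 CPM in HA2 and 78.7, 217 and 192 CPM in HA1. The copies are similar in description and may share reads.

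HMG-CoA reductase, the rate-limiting enzyme of the mevalonate pathway, supplies the precursors of squalene. Of 10 tested copies 5 were higher in HA2 and 1 was lower at an unadjusted p under 0.05. Rru06G033540 had 586, 837 and 1204 CPM in HA2 and 212, 458 and 462 CPM in HA1. Rru06G033550 had 273, 499 and 1430 CPM in HA2 and 119, 191 and 181 CPM in HA1, with HA2 replicate 3 far above the rest. Their log2 fold changes were 1.22 ± 0.36 and 2.17 ± 0.63, with DESeq2 adjusted p of 0.0268 (0.0038 to 0.176) and 0.0118 (0.000603 to 0.164). For Rru06G033550 the log2 fold change was 1.24 without HA2 replicate 3 (adjusted p 0.159). Rru02G011820 was lower, with 178, 154 and 167 CPM in HA2 and 263, 330 and 266 CPM in HA1. The plastid route to terpenoids was represented by 1-deoxy-D-xylulose 5-phosphate reductoisomerase (Rru07G014880), with 52.1, 57.7 and 84.9 CPM in HA2 and 31.9, 34.7 and 44.7 CPM in HA1. A (-)-germacrene D synthase gene (Rru05G057810), for a volatile sesquiterpene, had 79.1, 496 and 0.0974 CPM in HA2 and 18.0, 30.5 and 33.7 CPM in HA1. In HA2 this gene thus spanned the lowest and the highest values of the 6 libraries.

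Cytochrome P450 enzymes, many of which decorate terpenoids and phenolics, were tested for 163 of 263 genes. At an unadjusted p under 0.05, 29 were higher in HA2 and 4 lower, DESeq2 called 14 higher and 2 lower (8 and 1 without HA2 replicate 3), and the median log2 fold change was 0.44. CYP716B1 (Rru02G041320), of the family that oxidises triterpenes, had 22.9, 21.3 and 21.9 CPM in HA2 and 5.8, 10.7 and 11.9 CPM in HA1. The HA2 values were close together and all above HA1. CYP93A3 (Rru03G028330) had 15.5, 28.5 and 31.8 CPM in HA2 and 3.86, 8.03 and 11 CPM in HA1. The log2 fold changes were 1.22 ± 0.28 and 1.73 ± 0.4, with DESeq2 adjusted p of 0.00989 (0.00865 to 0.077) and 0.00489 (0.000765 to 0.071). CYP84A1 (Rru02G014750), ferulate 5-hydroxylase of syringyl lignin synthesis, was lower, with 238, 200 and 164 CPM in HA2 and 324, 434 and 433 CPM in HA1. Its DESeq2 adjusted p was 0.00322 (0.000971 to 0.0611).

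Flavonoid and lignin genes were counted apart. Of 103 flavonoid and anthocyanin genes 62 were tested, with 9 higher and 1 lower at an unadjusted p under 0.05, 5 called higher and 0 lower and a median log2 change of 0.49. A flavonoid 3'-monooxygenase (Rru07G021770), which adds a hydroxyl group to the B ring, had 5.45, 4.08 and 17 CPM in HA2 and 1.69, 1.84 and 1.64 CPM in HA1. It stayed called in all 11 alternatives, at 0.00259 (0.00133 to 0.0461), and its log2 fold change of 2.36 was 1.47 without HA2 replicate 3. An anthocyanidin 3-O-glucosyltransferase (Rru06G051830) had 50.2, 41.9 and 32.6 CPM in HA2 and 11.2, 16.8 and 26.0 CPM in HA1. Of 170 lignin and phenylpropanoid genes 137 were tested, with 13 higher and 2 lower at that p and 3 called higher and 2 lower. The higher share, 9.49%, was near the background, and the lower share was 1.46%. Phenylalanine ammonia-lyase 1 (Rru01G039610), the entry enzyme, had 447, 596 and 562 CPM in HA2 and 267, 340 and 342 CPM in HA1. The groups did not overlap, and the log2 fold change was 0.76 ± 0.21 with a DESeq2 adjusted p of 0.00944 (0.00519 to 0.134). Caffeoylshikimate esterase (Rru02G049850), of the monolignol route, was lower, with 84.0, 81.4 and 78.4 CPM in HA2 and 169, 124 and 122 CPM in HA1.

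The lignin list depended on HA2 replicate 3. The median over its members, as log2 CPM about the mean of the 6 libraries, was 0.28, 0.50 and -0.44 in HA2 and -0.13, -0.14 and -0.03 in HA1. Without that library 33 members were higher and 2 lower at an unadjusted p under 0.05. Laccases, which polymerise monolignols, made up 21 of these 33. Of 58 tested laccases 5 were higher with all libraries and 21 without HA2 replicate 3, with 0 lower in both fits. The corresponding background without that library was 6.23% of genes higher and 7.3% lower.

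Ethylene and jasmonate genes were more often higher than lower. Of 171 ethylene genes 116 were tested, with 22 higher and 6 lower at an unadjusted p under 0.05, 6 called higher and 0 lower by DESeq2 and a median log2 change of 0.14. A 1-aminocyclopropane-1-carboxylate oxidase (Rru06G048060), which makes ethylene, had 4.29, 1.55 and 0.609 CPM in HA2 and 0.228, 0.181 and 0.431 CPM in HA1. The groups were apart at low counts, with a DESeq2 adjusted p of 0.0166 (0.00406 to 0.171), and the log2 fold change of 2.93 was 1.94 without HA2 replicate 1. Of 61 jasmonate genes 42 were tested, with 6 higher and 2 lower, and without HA2 replicate 3 there were 13 higher and 1 lower. The jasmonate median was 0.41, 0.45 and -0.90 in the HA2 libraries and -0.32, -0.19 and 0.21 in the HA1 libraries. Linoleate 13S-lipoxygenase 2-1 (Rru01G000750), which starts jasmonate synthesis, had 67.3, 79.2 and 47.5 CPM in HA2 and 22.7, 30.3 and 33.6 CPM in HA1. That gave a log2 fold change of 1.17 ± 0.26, with a DESeq2 adjusted p of 0.00761 (0.00189 to 0.134).

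Strigolactones are root signals that plants release under phosphate shortage. Of 15 genes for strigolactone and carotenoid cleavage 9 were tested, with 4 higher and 0 lower at an unadjusted p under 0.05 and 2 called higher and 0 lower (1 and 0 without HA2 replicate 3). Carotenoid cleavage dioxygenase 7 (Rru01G026600), an early enzyme of the pathway, had 3.13, 1.64 and 8.65 CPM in HA2 and 0.936, 1.32 and 0.718 CPM in HA1. The strigolactone receptor D14 (Rru02G006100) had 4.0, 5.8 and 7.5 CPM in HA2 and 2.26, 3.28 and 2.61 CPM in HA1. HA2 was above HA1 in every library of both genes, with HA2 replicate 3 the highest. Fitted log2 fold changes were 2.17 ± 0.57 and 1.09 ± 0.27, with DESeq2 adjusted p of 0.0113 (0.00209 to 0.13) and 0.018 (0.00251 to 0.208). The dioxygenase had a log2 fold change of 1.26 without HA2 replicate 3 (adjusted p 0.128). NCED1 (Rru05G021930), the regulated step of abscisic acid synthesis, had 81.0, 93.0 and 93.2 CPM in HA2 and 21.5, 49.4 and 61.5 CPM in HA1, and a DESeq2 adjusted p of 0.0846 (0.0301 to 0.27).

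Of 190 cyclin, cyclin-dependent kinase, histone and kinesin genes 154 were tested, with 31 higher and 12 lower at an unadjusted p under 0.05, 7 called higher and 4 lower (2 and 1 without HA2 replicate 3) and a median log2 change of 0.24. Kinesins, motors that move along microtubules, held 20 of the 31 higher and 5 of the 12 lower genes, and the median of the 61 tested kinesins was 0.49. Cyclins and cyclin-dependent kinases had 10 higher and 5 lower of 50 tested, with 4 called higher and 2 lower and a median of 0.00, and histones had 1 higher and 1 lower of 38. No difference between these kinds was tested. KIN-12C (Rru04G038270) had 7.51, 4.85 and 6.31 CPM in HA2 and 2.85, 2.11 and 3.62 CPM in HA1. Cyclin-D1-1 (Rru04G054330), which promotes entry into S phase, had 11.8, 13.9 and 12.7 CPM in HA2 and 4.77, 5.69 and 7.41 CPM in HA1. Both genes were above HA1 in all 3 HA2 libraries. CDKB1-1 (Rru03G010180), a plant-type kinase of the transition to mitosis, was lower, with 32.8, 24.1 and 23.3 CPM in HA2 and 61.2, 46.9 and 43.3 CPM in HA1. CDKF-1 (Rru02G006350), which activates other cyclin-dependent kinases, had 19.3, 17.5 and 18.0 CPM in HA2 and 36.0, 28.0 and 31.7 CPM in HA1. The log2 fold changes of the kinases were -0.92 ± 0.19 and -0.81 ± 0.16, with DESeq2 adjusted p of 0.00833 (0.000769 to 0.132) and 0.00478 (0.00407 to 0.0995).

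Genes for cytosolic ribosomal proteins lay slightly lower by their median, with a share of lower genes near the background. Of 282 genes 202 were tested, with 0 higher and 19 lower (9.41%, against 8.41% of all genes) at an unadjusted p under 0.05. DESeq2 called 0 higher and 3 lower (0 without HA2 replicate 3), and these 3, 1.49%, were a smaller share than over all genes. The median log2 fold change was -0.35 with quartiles of -0.43 and -0.26. Over the libraries their median was -0.06, -0.35 and -0.06 in HA2 and 0.53, 0.10 and -0.14 in HA1. HA1 replicate 1 was the highest, and the groups overlapped. RPS6-2 (Rru01G052630), a subunit phosphorylated in response to growth signals, had 10.1, 8.24 and 6.99 CPM in HA2 and 18.2, 14.4 and 13.1 CPM in HA1, a log2 fold change of -0.86 ± 0.2.

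Heat shock proteins and factors lay both ways, with shares a little above the background. Of 136 genes 85 were tested, with 8 higher (9.41%) and 10 lower (11.8%) at an unadjusted p under 0.05. Over all genes these shares were 7.7% and 8.41%. DESeq2 called 1 higher and 4 lower, and the median log2 change was -0.08. There were 3 higher and 11 lower at that p without HA2 replicate 3, and 0 called higher and 1 lower. Among the abundant members, the chaperone HSP70-1 (Rru03G015990) had 4060, 3797 and 3059 CPM in HA2 and 7096, 6693 and 6296 CPM in HA1. HSP90-2 (Rru05G067410) had 861, 729 and 994 CPM in HA2 and 2237, 1581 and 1071 CPM in HA1. Both were lower in every HA2 library, with log2 fold changes of -0.88 ± 0.27 and -0.92 ± 0.3 and DESeq2 adjusted p of 0.0122 (0.00151 to 0.163) and 0.0558 (0.00714 to 0.393). CK had less of HSP70-1, at 1571, 1899 and 1210 CPM. Heat stress factor A-4b (Rru02G043440) was higher, with 174, 241 and 356 CPM in HA2 and 63.7, 160 and 120 CPM in HA1.

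**Figure D4:**
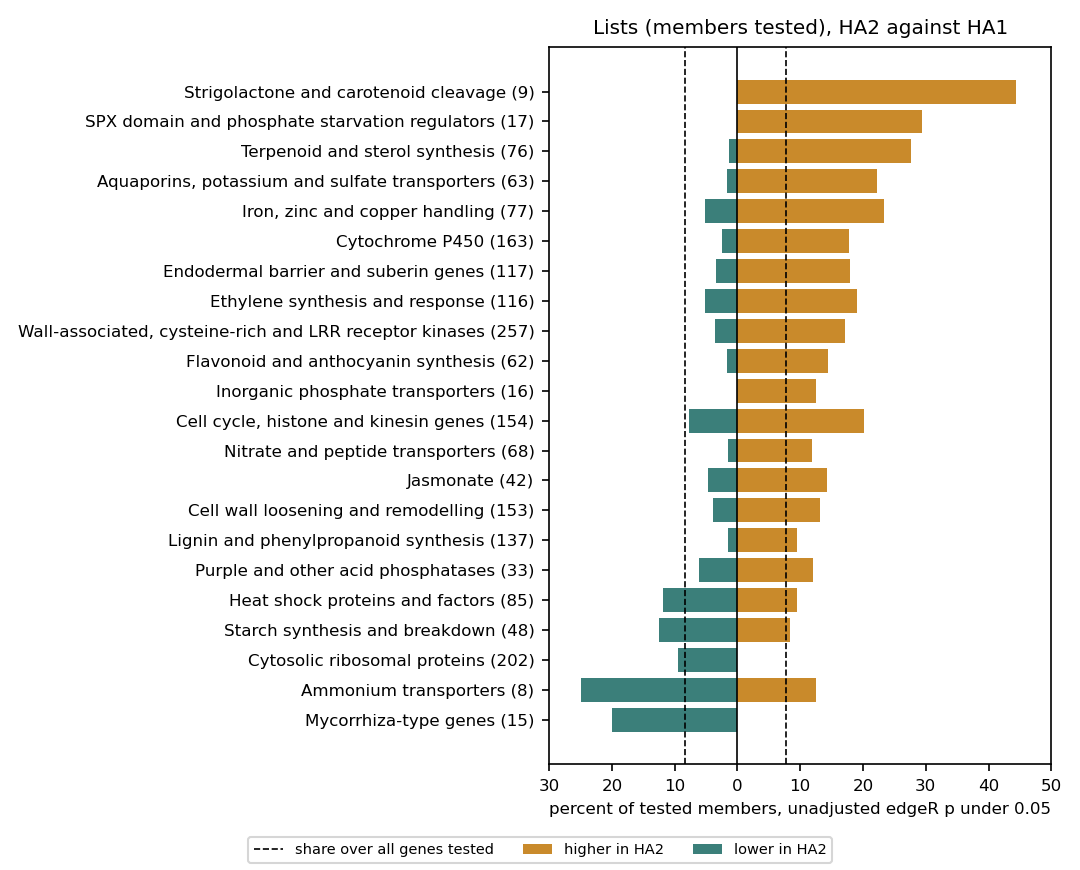
Share of the tested members of 22 gene lists with an unadjusted edgeR p under 0.05, with the list and its number of tested members on the y axis and percent on the x axis. Bars to the right are members higher in HA2, bars to the left members lower in HA2, and dashed lines are the shares over all tested genes, 7.7% and 8.41%. Ribosomal proteins and mycorrhiza-type genes have no bar on the right, and all other lists reach past the right line.

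Barrier genes were more often higher. Of 201 genes for the endodermal barrier and suberin 117 were tested, with 21 higher and 4 lower at an unadjusted p under 0.05, 6 called higher and 2 lower (2 and 0 without HA2 replicate 3) and a median log2 change of 0.32. CASP-like protein 5B2 (Rru03G014760) had 7.19, 7.18 and 8.31 CPM in HA2 and 3.22, 4.12 and 4.54 CPM in HA1, and a DESeq2 adjusted p of 0.00348 (0.00375 to 0.0725). Of 298 genes for loosening and remodelling the wall 153 were tested, with 20 higher and 6 lower, 8 called higher and 1 lower (4 and 0 without HA2 replicate 3) and a median of 0.27. Among wall families, xyloglucan endotransglucosylases had 2 higher and 2 lower of 27 tested, expansins 0 and 1 of 14 and cellulose synthase catalytic subunits 0 and 0 of 8. Cellulose synthase-like proteins, which make wall polysaccharides and were taken up after their values were seen, had 6 higher and 0 lower of 19 tested. CSLG2 (Rru04G004820) had 40.3, 81.2 and 65.9 CPM in HA2 and 19.1, 29.8 and 21.4 CPM in HA1. CSLD3 (Rru07G030060), required for root hair growth in Arabidopsis, had 3.39, 2.69 and 4.8 CPM in HA2 and 1.32, 1.29 and 1.15 CPM in HA1. All HA2 values were above all HA1 values in both, and both were called in all 11 alternatives, at 0.00128 (1.45e-06 to 0.0471) and 0.00159 (0.000877 to 0.0328).

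Receptor kinases of the wall-associated, cysteine-rich and leucine-rich repeat types were tested for 257 of 354 genes, with 44 higher and 9 lower at an unadjusted p under 0.05, 9 called higher and 3 lower (3 and 0 without HA2 replicate 3) and a median log2 change of 0.38. A leucine-rich repeat kinase (Rru04G048780) had 23.0, 26.7 and 50.1 CPM in HA2 and 10.1, 17 and 16.9 CPM in HA1. WAKL8 (Rru05G069500), a kinase that spans wall and membrane, was lower, with 4.9, 4.33 and 4.19 CPM in HA2 and 9.15, 8.34 and 7.21 CPM in HA1. Each of these genes was apart between the groups. WRKY53 (Rru07G016290), a factor of senescence and defence in Arabidopsis, had 441, 693 and 1344 CPM in HA2 and 114, 355 and 228 CPM in HA1. CK had 1116, 784 and 936 CPM of it. WRKY72A (Rru07G003790) lay the other way, with 20.8, 14.1 and 7.5 CPM in HA2 and 52.3, 29.4 and 33.4 CPM in HA1. The log2 fold changes of the WRKY genes were 1.83 ± 0.49 and -1.44 ± 0.38.

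Genes for starch synthesis and breakdown had no common direction. Of 65 genes 48 were tested, with 4 higher (8.33%) and 6 lower (12.5%) at an unadjusted p under 0.05, 0 called higher and 2 lower and a median log2 change of -0.02. There were 2 higher and 3 lower at that p without HA2 replicate 3, and 1 called lower. The 2 genes with the lowest p were both lower. Alpha-amylase 2 (Rru06G054820) had 153, 119 and 94.2 CPM in HA2 and 363, 312 and 222 CPM in HA1. Alpha-glucan water dikinase 1 (Rru03G024180), which phosphorylates starch before its breakdown, had 6.93, 5.96 and 5.63 CPM in HA2 and 11.8, 10.8 and 10.5 CPM in HA1. No HA2 library reached the lowest HA1 library in either gene, and the DESeq2 adjusted p was 0.0122 (1.34e-05 to 0.182) and 0.00485 (0.00379 to 0.106).

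**Figure D5:**
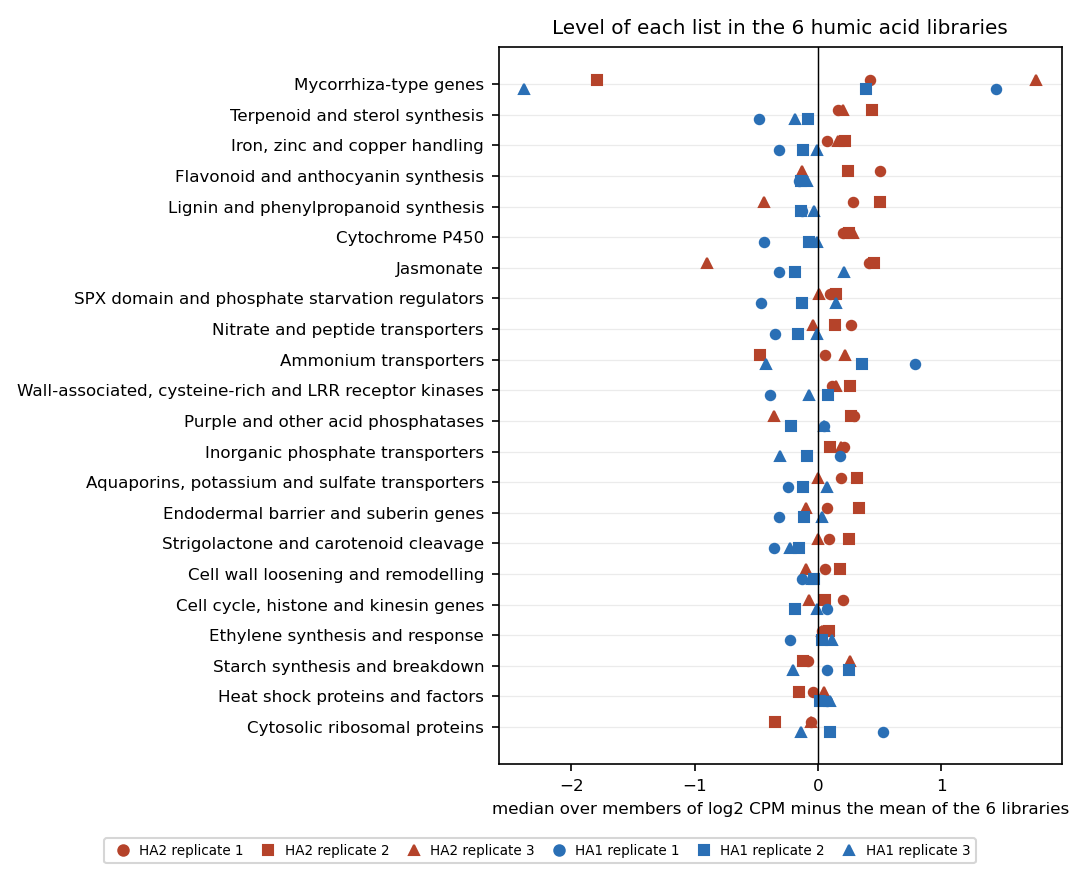
Median over the members of each list of log2 CPM minus its mean over the 6 libraries, with the list on the y axis and that difference on the x axis. Red symbols are HA2 libraries and blue symbols HA1 libraries. In the terpenoid list the 3 HA2 libraries, at 0.16 to 0.44, lie right of the 3 HA1 libraries, at -0.48 to -0.08, while in the jasmonate and lignin lists the HA2 replicate 3 triangle lies left of all other libraries.

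The lists thus differed in how evenly the HA2 libraries shared their level. The median of the terpenoid list was 0.16, 0.44 and 0.20 in HA2 and -0.48, -0.08 and -0.19 in HA1, and that of the P450 list was 0.20, 0.25 and 0.28 in HA2 and -0.44, -0.07 and -0.01 in HA1. In both lists the HA2 libraries were all above the HA1 libraries. The acid phosphatase median was 0.29, 0.27 and -0.36 in HA2 and 0.05, -0.22 and 0.05 in HA1, with HA2 replicate 3 the lowest of the 6. In the mycorrhiza list the median ran from -1.79 to 1.77 in HA2 and from -2.38 to 1.44 in HA1, the widest span within a group of the 22 lists shown.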

How the data were processed

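Polyadenylated RNA from roots was read in pairs on the Illumina NovaSeq platform, per the labels' protocols. The deposited table holds raw counts and FPKM values for each gene in each library, per the file headers, with Swiss-Prot descriptions that gave the gene names. Of the gene IDs, 0 matched the RefSeq gene table, so no sequence or position is printed. Which aligner, counter, strand setting and genome build the authors used is not given in the sources used here. Their deposited table also holds DESeq2 adjusted p-values and log2 fold changes, per the file headers.

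Libraries were grouped by label, with 3 in each of 3 groups. Counts were tested with edgeR 4.0.16 in R 4.3.3 (filterByExpr, TMM, a quasi-likelihood fit of all 9 libraries, HA2 over HA1, two-sided). P-values were adjusted by the method of Benjamini and Hochberg over the 25260 genes and called at 0.05. The SE was obtained by dividing the absolute log2 fold change by the root of F. DESeq2 1.42.0 (Wald test) was an alternative. Its ranges cover 11 fits (8 for Fra a 1-3, where the others gave no adjusted p), of which 9 leave out a library, 1 uses the 6 libraries of HA2 and HA1 alone, and 1 has a replicate block. FPKM values served only to compare levels between genes. A count of 3 is worth 0.06979 to 0.08863 CPM, depending on the library. The procedure was tested on simulated data.

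The comparison, the 43 gene lists (found by words in the deposited descriptions) and the tests were chosen with earlier results of these data known. Named genes were the 12 with the lowest p in each direction among genes that have a functional description, reach a group mean of 5 CPM and do not overlap between HA2 and HA1. The 2 members of each list with the lowest p and, per direction, the 6 genes with the lowest adjusted p in the authors' deposited table were added. Up to 8 members per list, all phosphate and ammonium members, and the sub-families were added after their values were seen. Tables and figures used Python 3.11.15, pandas 2.3.3 and matplotlib 3.10.9.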

Additional observations from a re-analysis of the deposited data

How the results depend on the processing

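The number of genes past edgeR's adjusted threshold was 0 under every edgeR alternative run: other scaling, other filters, the 6 libraries alone, a replicate block, a stricter threshold or fold, and leaving out each library. It was 946 with DESeq2, 468 with DESeq2 without HA2 replicate 3, and 4069 at an unadjusted p under 0.05. Leaving out 1 library at a time gave 1177 to 2278 genes higher in HA2 and 1292 to 2459 lower at that p, 67 to 640 higher and 73 to 737 lower by DESeq2, and 3356 to 4474 higher without overlap. Fewer values overlap less often, so the counts without overlap cannot be set against those of all libraries. For the list medians (log2), leaving out 1 library gave 0.11 to 0.54 for phosphate transporters, -0.5 to 0.55 for ammonium transporters, 0.23 to 0.55 for nitrate and peptide transporters, 0.36 to 0.56 for metals, 0.16 to 0.66 for flavonoids, 0.09 to 0.46 for strigolactones, 0.08 to 0.29 for the cell cycle and 0.24 to 0.40 for the cell wall. It gave -0.24 to 0.09 for starch and -0.64 to 1.63 for the mycorrhiza list, which changed sign within the SD of the library medians, 1.89 for the mycorrhiza list. DESeq2 without HA2 replicate 3 gave 0.14 for phosphate transporters, -0.47 for ammonium transporters, 0.39 for metals and 0.49 for strigolactones. The nitrate median was 0.21 with no filter and 0.18 with at least 1 CPM in 3 libraries, and the strigolactone median was 0.7 and 1.1, since other members were tested. The heat shock median was -0.16 in the 6 libraries alone. Of 595 list medians under alternatives, 567 moved by less than the SD of the library medians. For the 121 genes whose fold change was recomputed, not all of which are named here, 2057 of 2057 values kept their sign. Many of them were chosen for a low p or for groups that do not overlap. A change of sign was therefore unlikely from the start, and this count is no measure of stability. Outside the 121 genes are 4 genes named by their levels alone, whose log2 fold changes took both signs: -0.65 to 0.18 for Rru05G007060, -0.21 to 0.15 for Rru04G008850, -0.74 to 1.63 for Rru01G053270 and -0.29 to 2.25 for Rru01G053280. The alternatives for genes at an unadjusted p, for DESeq2 counts and for overlap were chosen after seeing the data. The labels do not say that replicate numbers pair the samples. Same-numbered HA2 and HA1 libraries had deviation correlations of 0, -0.08 and -0.3, which cannot decide it with so few libraries. With the replicate block edgeR called 0 genes, 2046 were higher and 2085 lower at an unadjusted p under 0.05, and DESeq2 called 545 higher and 458 lower. Where causes are not stated, the cause was not tested. The 6 libraries held 36669889 to 42988605 counts, and the part of depth in the low number of calls was not tested.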

Other observations

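Some families were looked at only after their values were seen, so their counts are descriptions. Pentatricopeptide repeat proteins, which process RNA in mitochondria and plastids, were mostly lower in HA2. Of 619 genes 521 were tested, with 5 higher and 151 lower at an unadjusted edgeR p under 0.05 (7.7% and 8.41% of all genes), 0 called higher and 31 lower by DESeq2, and a median log2 fold change of -0.54. Their median about the mean of the 6 libraries was -0.10, -0.22 and -0.46 in HA2 and 0.43, 0.24 and 0.18 in HA1, so that every HA2 library was below every HA1 library. Rru04G056220 had 48.4, 41.7 and 45.5 CPM in HA2 and 108, 76.6 and 83.3 CPM in HA1, a log2 fold change of -0.98 ± 0.17 with a DESeq2 adjusted p of 0.000464 (0.000475 to 0.0278 over 11 alternatives). Without HA2 replicate 3 there were 2 higher and 95 lower. F-box proteins, the substrate adaptors of SCF ubiquitin ligases, had 16 higher and 70 lower of 351 tested, and 7 and 54 without HA2 replicate 3. The F-box/kelch-repeat gene Rru06G027740 had 44.7, 52.6 and 39.7 CPM in HA2 and 87.9, 78.3 and 109 CPM in HA1, and Rru05G012710 had 56.7, 36.0 and 24.5 CPM in HA2 and 120, 95.9 and 121 CPM in HA1. DEAD-box RNA helicases, which unwind RNA, had 2 higher and 18 lower of 54 tested. RH30 (Rru07G013910) had 319, 258 and 236 CPM in HA2 and 562, 505 and 519 CPM in HA1.

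Other families lay higher in HA2. Genes described as 2-oxoglutarate-dependent dioxygenases, which include the AOP2 cluster, had 9 higher and 0 lower of 44 tested, and DESeq2 called 7 with HA2 replicate 3 and 10 without it. Genes described as loganic acid O-methyltransferases, after an enzyme of iridoid synthesis in Catharanthus, had 5 higher and 0 lower of 17 tested, with a median log2 fold change of 1.07. Rru07G021790 had 6.87, 4.88 and 11.3 CPM in HA2 and 2.47, 2.11 and 1.0 CPM in HA1. Genes described as PHOSPHATE-INDUCED 1 or EXORDIUM, extracellular proteins tied to cell growth, had 6 higher and 0 lower of 12 tested. Rru07G055160 had 603, 1033 and 1833 CPM in HA2 and 203, 531 and 405 CPM in HA1, with HA2 replicate 3 the highest. Without that library DESeq2 called 0 of the 12, against 4 with it.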
